A study of Arabidopsis thaliana with 24 samples.

Results

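*WRKY53* (AT4G23810), *WRKY22* (AT4G01250) and *WRKY6* (AT1G62300) of *Arabidopsis thaliana* were followed in seedlings of 3 lines after chitin or after water. The genes were chosen by name, with earlier results of these data known. Each was read by the single probe set that the annotation of the ATH1 array assigns to that gene alone, 254231_at for *WRKY53*, 255568_at for *WRKY22* and 264746_at for *WRKY6*. They are 3 of the 13350 genes that could be named from a single-gene probe set and 3 of the 7 such WRKY genes, out of 72 WRKY genes that were looked for. The WRKY genes without such a probe set are not analysed here. The files name no genome build, so the genes are given by their locus codes.

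WRKY proteins are plant transcription factors that bind the W-box, a short DNA element found in the promoters of many defense genes and of WRKY genes themselves. Chitin, a polymer of fungal cell walls, is perceived at the plant cell surface by LysM receptor kinases, which start a cascade of mitogen-activated protein kinases and a wave of new transcription within minutes. *WRKY22* is best known as a factor downstream of such a kinase cascade in the response to bacterial flagellin. *WRKY53* acts in leaf senescence and in basal defense, and *WRKY6* in senescence, defense and phosphate and boron nutrition.

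The tested lines were *atl9*, which the labels call rre1-1, with a T-DNA insertion in *RRE1* (At2g35000), and *rre2*, labelled rre2-1, with a T-DNA insertion in *RRE2* (At3g16720, also *ATL2*). Both disrupted genes code for RING-domain proteins, a class that includes ubiquitin ligases. The reference line was wild-type Col-0. All plants were grown for 14 days in liquid medium under constant light and then received acid-hydrolysed crab-shell chitin at 100 mg/L, or sterile water as the mock treatment, for 30 min. Each of the 6 groups of line and treatment had 4 biological replicates with 1 array each, giving 24 arrays. Each mutant was represented by 1 insertion line, and the transcripts of the disrupted genes are not analysed here, so the genotype labels were not checked against them. A label field of the chitin-treated Col-0 samples calls them untreated, whereas their titles and source names give chitin, which was followed. RNA came from whole seedlings, so more RNA per cell and more cells that express a gene cannot be told apart.

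Levels below are intensities divided by the median of the same array over 22746 probe sets, and differences are on the log2 scale of that ratio. This median lay between 138.7 and 168.0 intensity units on chitin arrays and between 161.6 and 189.3 on mock arrays. Without the division the median chitin response over the tested probe sets was -0.165 in *atl9*, -0.175 in *rre2* and -0.156 in Col-0, so that changes reported here are relative to that shift. The arrays were scanned on 4 days, of which only the fourth held arrays of all 6 groups, 2 of each. Mock samples had been washed on fluidics modules 1 and 3 and chitin samples on modules 2 and 4, and module and treatment cannot be told apart. Shoot and root markers of the seedlings were well above the array median on all arrays, the lowest at 3.45 times.

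*WRKY53* gave the strongest response of the 3 genes. In *atl9* it stood at 50.7, 45.3, 45.5 and 50.4 times the array median after chitin, against 5.09, 4.01, 3.27 and 5.26 times after mock treatment. In *rre2* the chitin arrays gave 41.6, 50.2, 62.4 and 44.0 times the median, against 4.1, 4.33, 5.11 and 3.72 times on mock arrays. In Col-0 the levels were 31.2, 54.6, 39.3 and 41.5 times after chitin, against 4.85, 2.97, 3.86 and 4.44 times after mock treatment. The groups did not overlap in any line, and the lowest chitin array of all, Col-0 replicate 1, was still 5.93 times above the highest mock array, *atl9* replicate 4. The 4 *atl9* chitin arrays were the most alike, with a coefficient of variation of 6.16%, whereas those of *rre2* and Col-0 varied by 18.8% and 23.3%.

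On the log2 scale the rise of *WRKY53* with chitin was 3.47 in *atl9*, 3.51 in *rre2* and 3.37 in Col-0, each with a standard error of 0.19 (n = 4 arrays per group). As folds with 95% intervals these were 11.1 (8.48 to 14.4) in *atl9*, 11.4 (8.74 to 14.9) in *rre2* and 10.3 (7.89 to 13.5) in Col-0. The adjusted p from limma was 7.59e-12 in *atl9*, 6.67e-12 in *rre2* and 2.04e-11 in Col-0. The test covered the 72.7% of probe sets with the highest mean level, and of these 7.77% had risen in *atl9*, 8.62% in *rre2* and 11.8% in Col-0 at an adjusted p under 0.05. By size of the rise *WRKY53* ranked 56th in *atl9*, 65th in *rre2* and 50th in Col-0.

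**Figure D1:**
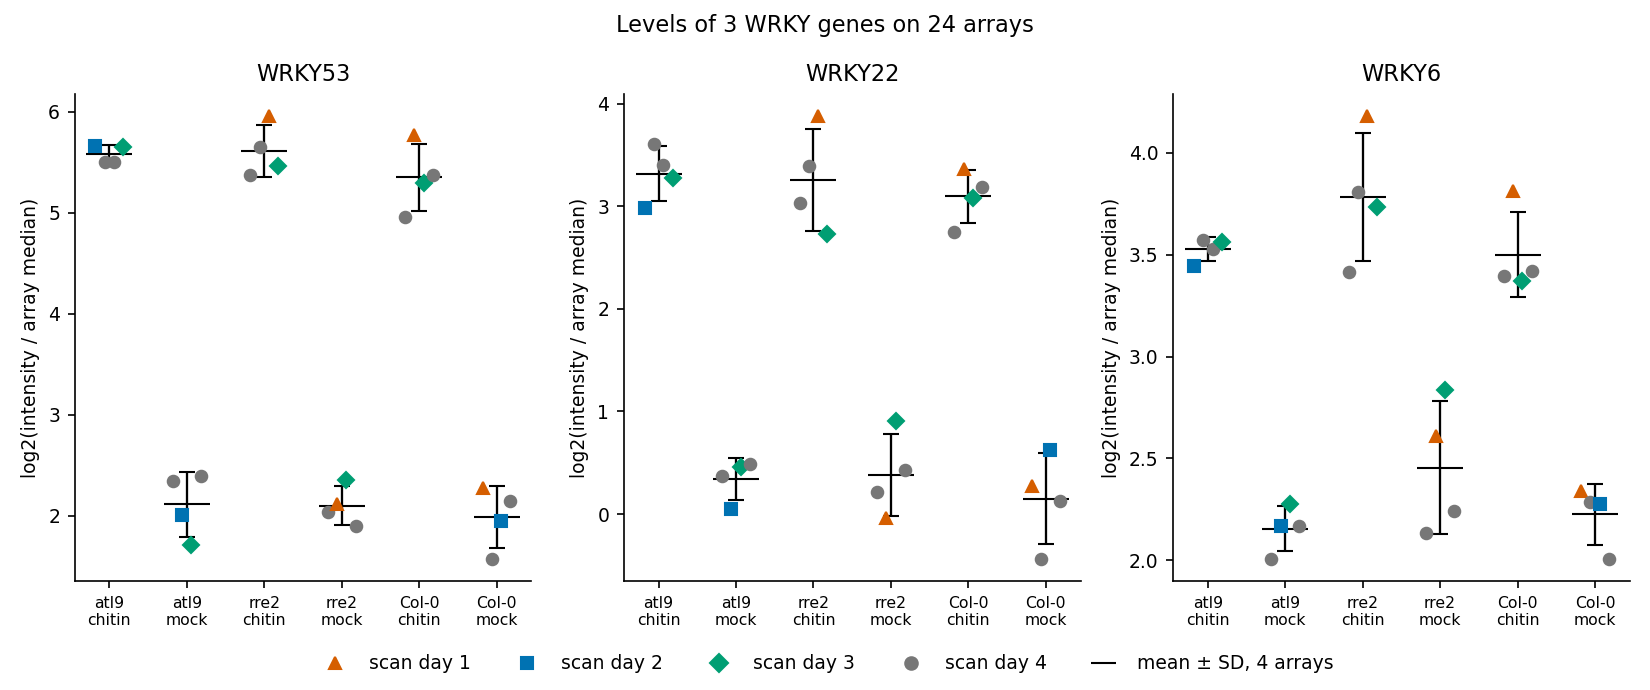
Levels of *WRKY53*, *WRKY22* and *WRKY6* on the 24 arrays. The vertical axis of each panel is log2 of intensity over the array median, symbols mark the scan day of each array, and bars give the mean and SD of 4 arrays. Every chitin array lies above every mock array for each gene, and the 2 chitin arrays of scan day 1 are the highest of their groups.

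*WRKY22* was close to the array median in mock-treated plants and several-fold above it after chitin. In *atl9* the levels were 7.89, 12.2, 10.6 and 9.72 times the median on chitin arrays, against 1.3, 1.03, 1.38 and 1.40 times on mock arrays. For *rre2* they were 8.16, 10.5, 14.8 and 6.65 times after chitin, against 1.16, 0.973, 1.87 and 1.35 times after mock treatment. Col-0 gave 6.73, 10.3, 8.49 and 9.14 times with chitin, against 1.21, 0.737, 1.55 and 1.09 times with mock. Chitin and mock arrays did not overlap, and the smallest separation was in *rre2*, where the lowest chitin array was 3.55 times above the highest mock array. Replicate 3 of *rre2* was the highest of its group under both treatments, although the numbers were not taken to pair the samples.

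The rise of *WRKY22* was 2.98 in *atl9*, 2.88 in *rre2* and 2.95 in Col-0 (log2, standard error 0.24 each, n = 4 arrays per group). In linear terms it was 7.88-fold in *atl9* (95% interval 5.54 to 11.2), 7.38-fold in *rre2* (5.19 to 10.5) and 7.73-fold in Col-0 (5.44 to 11), with adjusted p from limma of 5.39e-09, 7.84e-09 and 9.09e-09 in that order of lines. It ranked 93rd in *atl9*, 119th in *rre2* and 74th in Col-0 among the tested probe sets.

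*WRKY6* differed from the other two genes in that the rise was small. In *atl9* the chitin arrays stood at 10.9, 11.9, 11.5 and 11.8 times the median, against 4.02, 4.50, 4.85 and 4.49 times on mock arrays. In *rre2* they stood at 10.7, 14.0, 18.2 and 13.3 times, against 4.39, 6.10, 7.15 and 4.73 times after mock treatment. Col-0 arrays gave 10.5, 14.1, 10.4 and 10.7 times after chitin, against 5.06, 4.87, 4.84 and 4.02 times after mock treatment. Groups of chitin and mock arrays were again separate in each line, but in *rre2* the lowest chitin array exceeded the highest mock array by a factor of only 1.49. Variation was smallest in *atl9*, with 3.96% among chitin arrays and 7.62% among mock arrays, and largest in *rre2*, with 22.1% and 22.8%.

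With chitin *WRKY6* rose by 1.37 in *atl9*, 1.33 in *rre2* and 1.27 in Col-0 (log2, standard error 0.16 each, n = 4 arrays per group). The folds were 2.59 (95% interval 2.06 to 3.24) in *atl9*, 2.51 (2.01 to 3.15) in *rre2* and 2.42 (1.93 to 3.03) in Col-0, with adjusted p from limma of 8.47e-07, 1.2e-06 and 3.00e-06 in that order of lines. In the ranking of all tested probe sets this gene came 517th in *atl9*, 625th in *rre2* and 516th in Col-0.

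**Figure D2:**
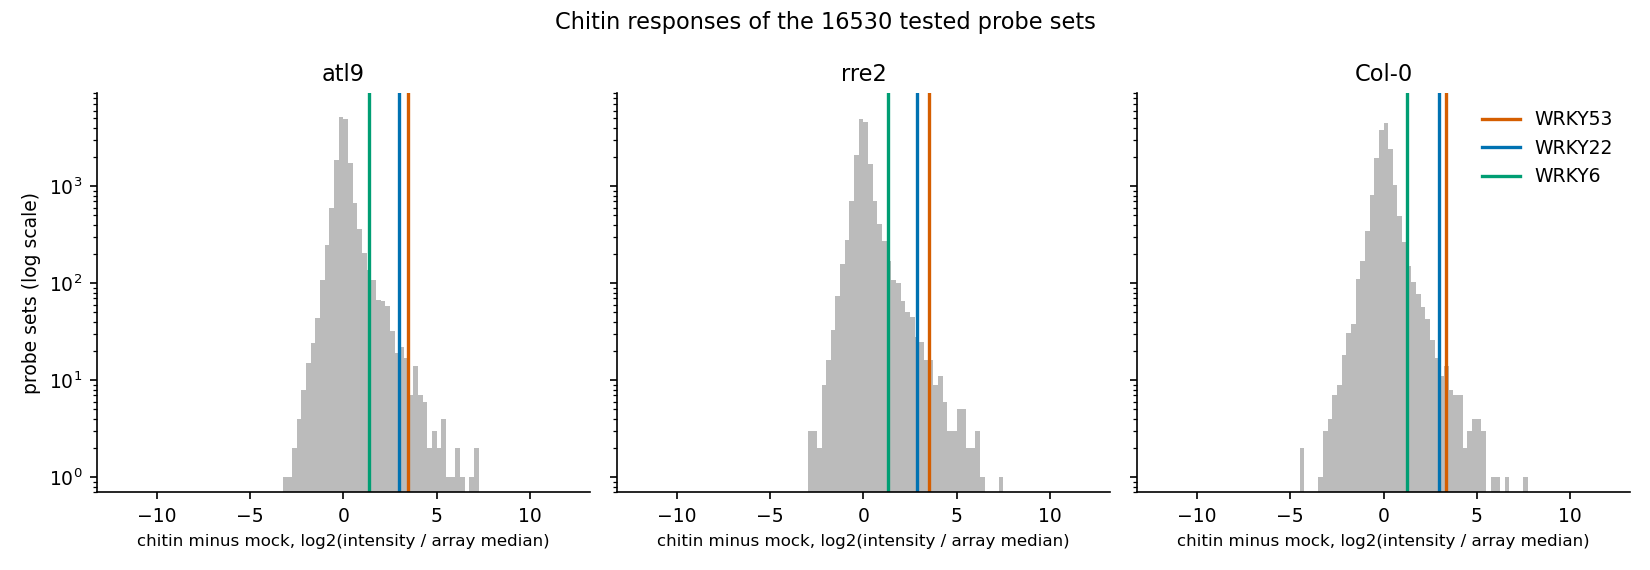
Chitin responses of the tested probe sets in *atl9*, *rre2* and Col-0. The horizontal axis is the log2 difference of chitin minus mock, the vertical axis counts probe sets on a log scale in bins of 0.25, and coloured lines mark the 3 WRKY genes. *WRKY53* and *WRKY22* lie in the far right tail, with at most 0.714% of probe sets above them, and *WRKY6* has between 3.12% and 3.77% above it.

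All 3 genes rose in each of the 3 lines, which 5.3% of the tested probe sets did. They also had all 12 chitin arrays above all 12 mock arrays, which held for 4.41%. Ordered by mean level, the 3 chitin groups came above the 3 mock groups for each gene, and the step between the lowest chitin group and the highest mock group was the only place in the order where neighbouring groups did not overlap. Within the chitin groups the order for *WRKY53* was *rre2* (49.5 ± 9.3 times the median, SD, n = 4), *atl9* (48.0 ± 3.0) and Col-0 (41.7 ± 9.7). For *WRKY22* it was *atl9* (10.1 ± 1.8), *rre2* (10.0 ± 3.5) and Col-0 (8.66 ± 1.48), and for *WRKY6* it was *rre2* (14.0 ± 3.1), *atl9* (11.5 ± 0.46) and Col-0 (11.4 ± 1.8). Col-0 thus had the lowest mean of the chitin groups for each gene, with a range of arrays that overlapped those of both mutants.

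The sizes of the responses were also compared between the genes on the same array, where the scaling of the array cancels. A ratio between probe sets says nothing of relative transcript abundance, and only its change with treatment is given. The ratio of *WRKY53* to *WRKY6* increased with chitin by 2.10 in *atl9*, 2.18 in *rre2* and 2.09 in Col-0 on the log2 scale, with all 4 chitin arrays above all 4 mock arrays in each line. That of *WRKY22* to *WRKY6* increased by 1.61, 1.55 and 1.68 in the same order, again without overlap. Each of these 6 changes had an exact two-sided permutation p of 0.0286, the smallest that 4 against 4 arrays allow (0.0321 after Benjamini-Hochberg adjustment over 18 such tests). *WRKY53* and *WRKY22* were closer to each other. Their ratio increased by 0.49 in *atl9* (exact permutation p = 0.114, adjusted 0.114), by 0.63 in *rre2* (p = 0.0571, adjusted 0.0605) and by 0.41 in Col-0 (p = 0.0286, adjusted 0.0321), so that only Col-0 passed, and whether the lines differed in this was not tested. This ratio leaned on single arrays, since the increase was 0.31 in *atl9* without mock replicate 3 and 0.24 in Col-0 without mock replicate 3.

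The same was done against the mean of *TIP41*, *PEX4* and *SAND*, genes often used as references in Arabidopsis. None of these 3 passed the test for a chitin response in any line, and their log2 differences lay between -0.14 and 0.27. On the values as deposited *TIP41* passed as lower over the mean of the 3 lines, with -0.31 in *atl9*, -0.19 in *rre2* and -0.21 in Col-0. Relative to the mean of the 3 reference genes *WRKY53* increased by 3.45 in *atl9*, 3.45 in *rre2* and 3.23 in Col-0. *WRKY22* increased by 2.96, 2.82 and 2.82, and *WRKY6* by 1.35, 1.27 and 1.14 in the same order. All 9 had an exact two-sided permutation p of 0.0286 with every chitin array above every mock array (0.0321 after adjustment over the 18 tests).

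The question of the design was whether the insertions alter the response to the elicitor, so the lines were compared directly. For *WRKY53* after mock treatment the difference from Col-0 was 0.13 in *atl9* (95% interval -0.26 to 0.51) and 0.11 in *rre2* (-0.27 to 0.50), and after chitin it was 0.23 in *atl9* (-0.15 to 0.62) and 0.26 in *rre2* (-0.12 to 0.65). The chitin response of *atl9* exceeded that of Col-0 by 0.10 (-0.44 to 0.65) and that of *rre2* by 0.15 (-0.40 to 0.69). None passed, with adjusted p from limma between 0.408 and 0.971. As a fold, the interval of the interaction reached 0.737 to 1.57 for *atl9* and 0.760 to 1.62 for *rre2*, so a moderate difference between the lines was not detectable with these arrays.

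For *WRKY22* the difference from Col-0 after mock treatment was 0.19 in *atl9* (-0.31 to 0.70) and 0.23 in *rre2* (-0.28 to 0.74), and after chitin 0.22 in *atl9* (-0.29 to 0.73) and 0.16 in *rre2* (-0.35 to 0.67). The responses differed from that of Col-0 by 0.03 in *atl9* (-0.69 to 0.75) and by -0.07 in *rre2* (-0.79 to 0.65). Adjusted p from limma was between 0.591 and 0.985. The wider intervals follow from the larger spread of this probe set between replicates, with a residual SD of 0.36 against 0.27 for *WRKY53* and 0.22 for *WRKY6*.

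*WRKY6* in *atl9* differed from Col-0 by -0.07 after mock treatment (-0.40 to 0.26) and by 0.03 after chitin (-0.30 to 0.35). In *rre2* the gene was 0.23 above Col-0 after mock treatment (-0.10 to 0.56) and 0.28 above it after chitin (-0.04 to 0.61). This value after chitin had an unadjusted p of 0.0840 and an adjusted p of 0.274 from limma, the smallest adjusted p of any line comparison of the 3 genes. The response exceeded that of Col-0 by 0.10 in *atl9* (-0.37 to 0.56) and by 0.06 in *rre2* (-0.41 to 0.52). Between the mutants after chitin, *atl9* minus *rre2* was -0.26 for *WRKY6* (-0.59 to 0.07, adjusted p = 0.532), 0.06 for *WRKY22* (-0.45 to 0.57, adjusted p = 0.950) and -0.03 for *WRKY53* (-0.42 to 0.35, adjusted p = 0.970) in limma's fit.

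**Figure D3:**
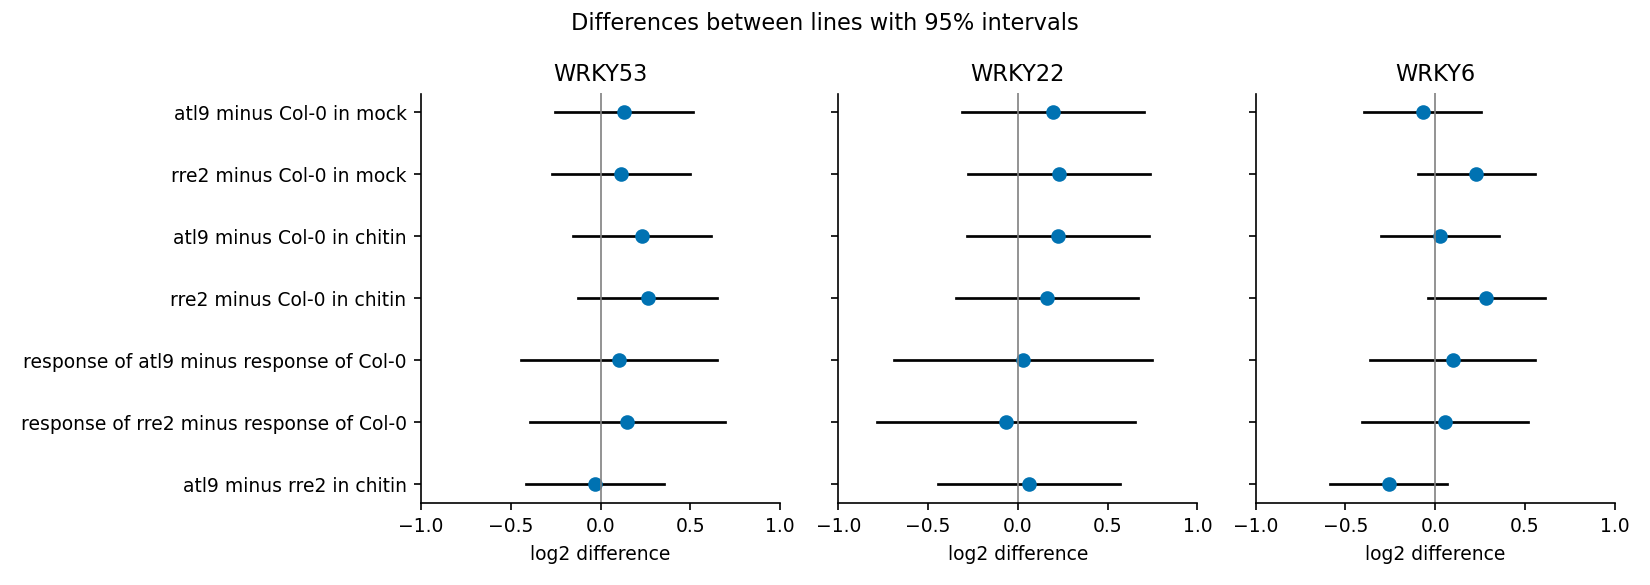
Differences between lines for *WRKY53*, *WRKY22* and *WRKY6*. Points are log2 differences from the fit of 6 group means over 24 arrays and lines are 95% intervals, with the comparison named on the vertical axis. All 21 intervals include 0.

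The share of all tested probe sets that passed the same comparisons in either direction is given for comparison. After chitin 12.6% differed between *atl9* and Col-0 and 9.23% between *rre2* and Col-0, whereas after mock treatment 0.0121% differed for *atl9*. For *rre2* after mock treatment it was 0%, that is 0 probe sets in limma and 0 without moderation, with 1027 at an unadjusted p under 0.05. The response itself differed from that of Col-0 for 0.345% of probe sets in *atl9* and 0.242% in *rre2*, and 0.00605% differed between the mutants after chitin. None of the 3 WRKY genes was among those that passed, which at these shares does not set them apart from other probe sets. On scan day 4 alone the shares after chitin were 0.121% for *atl9* and 0.00605% for *rre2* against Col-0.

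Markers of green tissue and of roots were read on the same arrays. The summed level of 4 shoot markers (*RCA*, *LHCB4.1*, *LHCB4.2* and *PSAN*, genes of photosynthesis) ranged between 92.0 and 174.9 times the median in *atl9* chitin arrays, 73.9 and 111 in *rre2* chitin arrays and 159 and 197 in Col-0 chitin arrays, against 109 and 125, 79.6 and 139.4, and 82.8 and 116 on the mock arrays of the lines in that order. All 4 rose with chitin in Col-0 and none passed in *atl9* or *rre2*, and after chitin all 4 were lower in *rre2* than in Col-0 (2 of 4 without the chitin arrays of scan day 1). *LHCB4.2* was also lower in *atl9* than in Col-0 after chitin (-0.70, adjusted p = 0.0439 in limma), and its response was lower in *rre2* than in Col-0 (-1.50, adjusted p = 0.0478), neither of which passed on the values as deposited, after quantile normalization or without the chitin arrays of scan day 1. The rise in Col-0 depended on the scaling, since 2 of the 4 passed on the values as deposited and 0 after quantile normalization. In *rre2*, *LHCB4.2* passed as lower with chitin under both of these scalings. Of 3 root markers, AT5G64120, a peroxidase gene that elicitors also induce, rose in Col-0 by 1.55 and in *rre2* by 0.79, and *PYK10* and *EXPA7* did not pass in any line, although *EXPA7* passed as lower with chitin in *atl9* on the values as deposited and after quantile normalization. After chitin AT5G64120 was lower than in Col-0, with a difference of -1.03 in *atl9* (adjusted p = 0.000688 in limma) and of -0.73 in *rre2* (0.00902), of which that in *rre2* did not pass without the chitin arrays of scan day 1. Its response in *atl9* differed from that in Col-0 by -1.09 (adjusted p = 0.0475 in limma), which did not pass after quantile normalization or without Col-0 chitin replicate 1. The summed root markers covered 117 to 134 times the median in *atl9* chitin arrays, 118 to 149 in *rre2* and 130 to 159 in Col-0, against 104 to 120, 94.6 to 126 and 98.6 to 109 on mock arrays in that order. This sum includes AT5G64120, whose mean was 24.8, 31.0 and 50.9 after chitin and 18.1, 17.8 and 17.5 after mock treatment in that order. It is therefore not a measure of root tissue alone. The part of the shoot and root markers in the levels of the WRKY genes was not tested.

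Among the other WRKY genes, *WRKY1*, *WRKY20* and *WRKY47* were tested and *WRKY42* was below the filter. Of the 6 tested genes of the family, *WRKY53*, *WRKY22* and *WRKY6* rose in each line, and the remaining 3 did not pass in any. The median response of the 6 was 0.67 in *atl9*, 0.75 in *rre2* and 0.74 in Col-0, beside 0.01, 0.00 and 0.05 over all tested probe sets. Because 3 of the 6 are the chosen genes, this median falls between *WRKY6* and the highest of the remaining 3. It does not describe a rise across the family. *WRKY1*, a factor with a pair of WRKY domains, had a difference of -0.35 in *atl9* (adjusted p = 0.140), -0.30 in *rre2* (0.205) and -0.40 in Col-0 (0.0524) in limma's fit. Over the mean of the 3 lines it fell by 0.35 (standard error 0.08, adjusted p = 0.00251 in limma). In that comparison 9.79% of the tested probe sets fell and 13.7% rose. On the values as deposited *WRKY1* passed as lower in each of the 3 lines, and after quantile normalization in Col-0.

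*WRKY20*, also with a pair of WRKY domains, had -0.14 in *atl9*, 0.18 in *rre2* and 0.07 in Col-0. *WRKY47*, like *WRKY6* a member of subgroup IIb, had -0.04 in *atl9*, 0.11 in *rre2* and 0.20 in Col-0. In *rre2* and Col-0 the signs of both genes changed with the scaling. In *atl9* both were negative under each scaling, and *WRKY20* passed as lower there on the values as deposited. *WRKY42*, another member of subgroup IIb and a close relative of *WRKY6*, lay between 0.215 and 0.365 times the array median on the chitin arrays of the mutants, 0.0539 and 0.233 on those of Col-0, and 0.0162 and 0.319 on the mock arrays of the 3 lines, where arrays give little information.

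**Figure D4:**
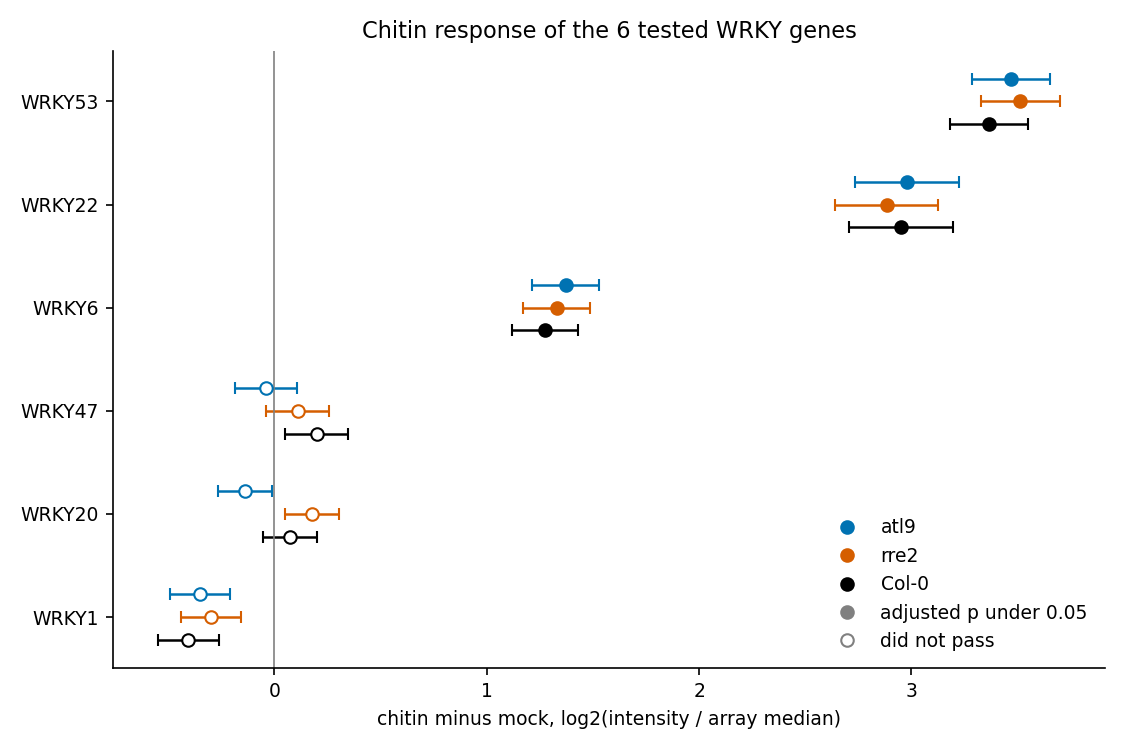
Chitin response of the 6 tested WRKY genes in *atl9*, *rre2* and Col-0. The horizontal axis is the log2 difference of chitin minus mock with its standard error (4 arrays per group), and filled points passed at an adjusted p under 0.05. *WRKY53*, *WRKY22* and *WRKY6* are filled in each line and *WRKY47*, *WRKY20* and *WRKY1* in none.

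Genes of chitin and elicitor signalling were set beside the transcription factors. Of 32 genes listed, 6 were tested, and 5 of these rose in each line, beside 5.3% of all tested probe sets. *PUB23*, *PUB22* and *PUB24*, U-box ubiquitin ligases that dampen elicitor signalling, rose by 3.11, 2.50 and 2.21 in *atl9*, by 2.92, 2.76 and 2.04 in *rre2*, and by 2.49, 1.85 and 1.92 in Col-0, that is by amounts between those of *WRKY6* and *WRKY53*. *PBL19*, a receptor-like cytoplasmic kinase, rose by 1.82 in *atl9*, 1.81 in *rre2* and 1.52 in Col-0. *BIK1*, a kinase of the same class that acts at several immune receptors, rose by 0.84, 0.97 and 0.93 in that order. *EFR*, the receptor of bacterial elongation factor Tu, had 0.45, 0.11 and 0.50 and did not pass in any single line. Over the mean of the 3 lines *EFR* rose by 0.35 (standard error 0.10, adjusted p = 0.0147 in limma), as 13.7% of the tested probe sets did. It did not pass in that comparison on the values as deposited. The median of the 6 was 2.01 in *atl9*, 1.93 in *rre2* and 1.69 in Col-0. None of the 6 passed a comparison between lines with all arrays scaled to the median. After chitin, however, *PUB22* passed as higher in *atl9* than in Col-0 on the values as deposited and after quantile normalization, and as higher in *rre2* than in Col-0 without Col-0 chitin replicate 1. *PBL19* passed as higher in *atl9* than in Col-0 without the 2 chitin arrays of scan day 1.

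Of 14 genes listed as partners or regulators of WRKY proteins, only *VQ10* was tested. It belongs to the VQ-motif proteins, several of which bind WRKY factors, and it rose by 2.01 in *atl9*, 2.67 in *rre2* and 2.11 in Col-0. Of 19 genes listed for senescence or as reported targets of the 3 factors, *SAG101* and *SAG29* were tested. *SAG101*, which codes for a lipase-like protein of the EDS1 family of immune regulators, rose by 0.92 in *atl9*, 0.72 in *rre2* and 1.01 in Col-0. *SAG29*, a sugar transporter gene of senescing leaves, had 0.23, 0.33 and -0.30 in that order and did not pass.

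Likeness of pattern was described by Pearson's r over the 24 arrays among 9010 tested single-gene probe sets. The arrays share the treatment contrast, which makes up most of each pattern, so high values are the rule among genes with a strong response. The 5 genes most like *WRKY53* were AT3G55840 (r = 0.988), *PUB23* (0.986), AT1G66090 (0.986), *WRKY22* (0.985) and AT2G26190 (0.984). They rose by 2.40 to 5.26 in the mutants and by 2.25 to 4.63 in Col-0. The 5 most like *WRKY22* were AT5G41100 (0.987), *WRKY53* (0.985), *pEARLI4* (0.983), AT1G33600 (0.982) and AT2G32030 (0.981). *WRKY53* and *WRKY22* thus appeared in each other's list by this measure. By Spearman's rho *WRKY22* ranked 36th for *WRKY53*, and *WRKY53* ranked 54th for *WRKY22*. Over all 16529 other tested probe sets, *WRKY22* ranked 11th by r for *WRKY53*, and *WRKY53* 4th for *WRKY22*. For *WRKY6* they were AT4G11300 (0.978), AT1G74360 (0.972), AT1G24140 (0.968), *B120* (0.964) and AT3G62260 (0.963), with neither *WRKY53* nor *WRKY22* among them.

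After the group means were removed, the deviations of the 3 genes on the same array were positively correlated. Pearson's r of these deviations over the 24 arrays was 0.561 for *WRKY53* and *WRKY22*, 0.436 for *WRKY53* and *WRKY6* and 0.499 for *WRKY22* and *WRKY6*. Of the other 16529 tested probe sets, 1.25% had a higher value with *WRKY53* than *WRKY22* did, and 4.57% a higher value than *WRKY6* did. With *WRKY22*, 1.77% had a higher value than *WRKY53* and 3.42% a higher value than *WRKY6*. With *WRKY6*, 9.60% had a higher value than *WRKY53* and 6.35% a higher value than *WRKY22*. The points of this comparison share the array, its seedlings and its scan day.

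The scan day moved with these deviations. The chitin arrays of day 1, *rre2* replicate 3 and Col-0 replicate 2, were the highest of their groups for all 3 genes, above their group means by 0.35 and 0.42 for *WRKY53*, 0.63 and 0.26 for *WRKY22* and 0.40 and 0.31 for *WRKY6*. The 2 mock arrays of that day deviated by 0.02 and 0.29 for *WRKY53*, -0.42 and 0.13 for *WRKY22* and 0.15 and 0.11 for *WRKY6*. Without both chitin arrays the responses of *WRKY53*, *WRKY22* and *WRKY6* were 3.40, 2.67 and 1.2 in *rre2* and 3.23, 2.86 and 1.17 in Col-0, and each passed in limma. On day 4 alone, with 2 arrays per group, *WRKY53* rose by 3.13 in *atl9*, 3.55 in *rre2* and 3.31 in Col-0, *WRKY22* by 3.08, 2.89 and 3.13, and *WRKY6* by 1.46, 1.42 and 1.26 in the same order, with adjusted p from limma of at most 0.00366.

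**Figure D5:**
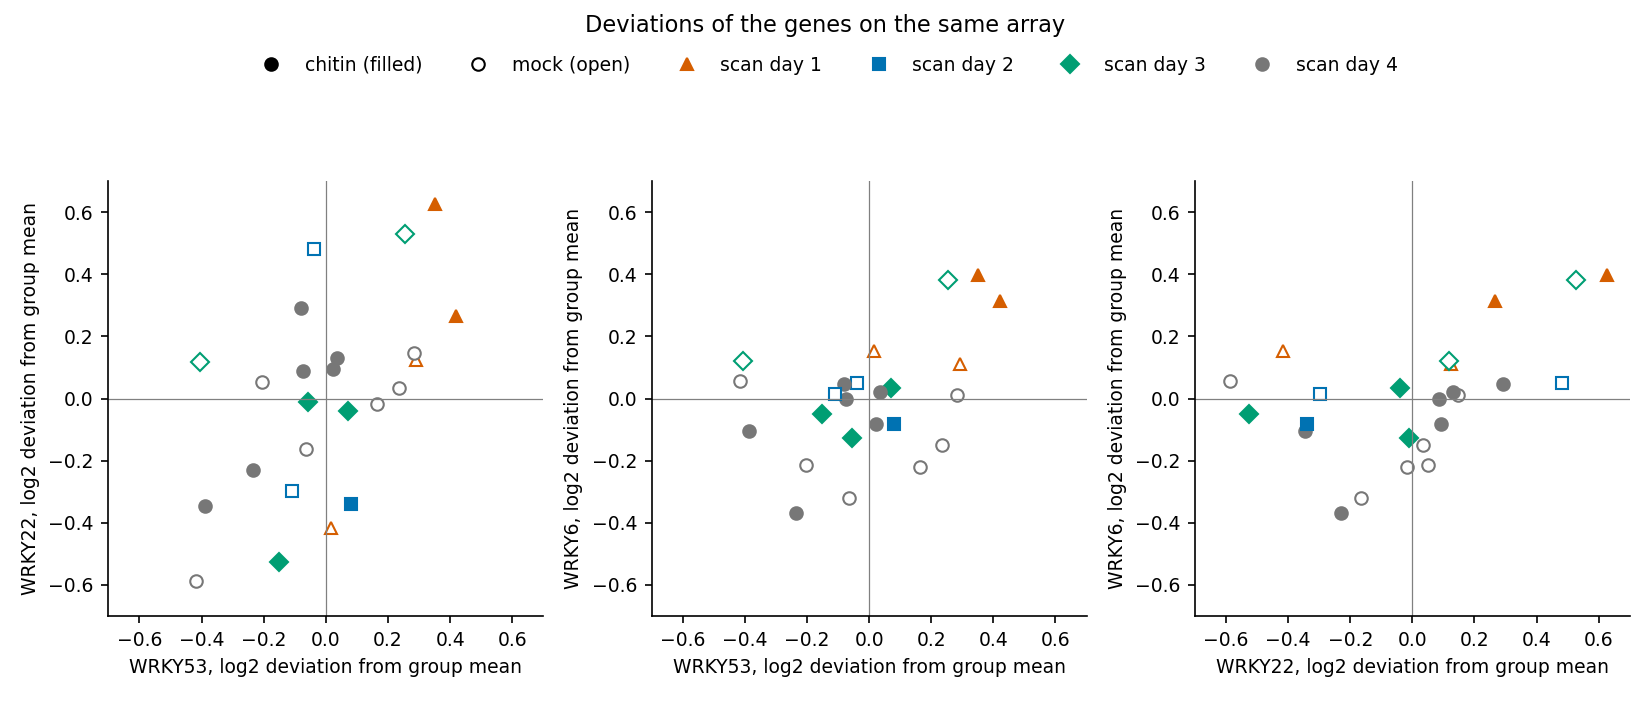
Deviations of the 3 genes from their group means on the same array. Axes are log2 deviations, each point is 1 of 24 arrays, filled points are chitin and open points mock, and symbols mark the scan day. The 2 chitin arrays of scan day 1 lie in the upper right of each panel, with deviations of 0.26 to 0.63.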

How the data were processed

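The deposited values are intensities per probe set on a linear scale, which the authors extracted with Affymetrix software and scaled to a target of 500. The labels also describe a later division by the array median, which had not been applied to them. Scan day and fluidics module were taken from the instrument reports, per the file headers. Of 22810 probe sets, 64 were controls, 13513 could be assigned to 1 gene and 503 to several, and the annotation used here left 8794 unnamed.

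Values were divided by the array median and converted to log2 with nothing added. Probe sets were ranked by mean level, and the upper 72.7% were fitted with limma 3.58.1 under R 4.3.3 (functions lmFit and eBayes, 6 group means, 24 arrays). Adjustment was by Benjamini-Hochberg with a threshold of 0.05. The study names a two-way ANOVA, of which an unmoderated linear model was run as an alternative. Ratios within arrays were tested by exact permutation in scipy 1.17.1. The fit was tested on simulated data. The number of arrays limits the precision.

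Members, gene lists and tests were chosen with earlier results of these data known. Named are the 3 genes in every comparison, up to 4 genes per list with the smallest adjusted p for the mean chitin response over the lines, and the 5 genes most alike. *BIK1*, *EFR*, *WRKY20*, *WRKY47* and *WRKY42* fall outside that rule and were named after their values were seen. The 7 lists were the WRKY family, chitin and elicitor signalling, partners and regulators of WRKY proteins, senescence and reported targets, reference genes, shoot markers and root markers. Alternatives changed the scaling (none, or quantiles), the offset (32), the filter (none, or 11000 probe sets), the arrays in the fit (16 of 2 lines, 1 scan day, or each array left out), the moderation, the array weights, or took replicate number or scan day as a block. After the data were seen, fits without the 2 chitin arrays of scan day 1 and list counts and ratios under fewer settings were added. The replicate numbers were not taken to pair the samples. After removal of group means the mean correlation was 0.00795 over 60 same-numbered pairs and -0.00236 over 180 other pairs, which does not exclude a weak pairing. Pairs of arrays of the same scan day had a mean correlation of 0.0874 (79 pairs), against -0.0426 for pairs of other days (161 pairs). The main fit held no term for the day. No pair of arrays held mostly identical values.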

Additional observations from a re-analysis of the deposited data

Results flagged for a closer look

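*WRKY6* in chitin-treated Col-0 was marked because 1 array stood apart. Replicate 2 gave 14.1 times the array median, against 10.5, 10.4 and 10.7 times for replicates 1, 3 and 4, and its gap to the nearest array took up 0.899 of the range of the group on the log2 scale, above Dixon's limit for 4 arrays. It was 1 of 18 combinations of gene and group examined, and chance marks about 1 in 20. The array was scanned on day 1. Without it and the *rre2* chitin array of that day *WRKY6* rose by 1.17 in Col-0, against 1.27 with all arrays.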

How the results depend on the processing

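For the 9 chitin responses and the 21 differences between lines of the 3 genes, every alternative with a test kept the side of the threshold. Called responses kept their direction. With each array left out in turn, the responses ranged between 3.23 and 3.60 for *WRKY53*, 2.67 and 3.11 for *WRKY22* and 1.17 and 1.46 for *WRKY6*. With the replicate number as a replicate block, *WRKY53* rose by 3.47 in *atl9*, 3.51 in *rre2* and 3.37 in Col-0 (adjusted p from limma at most 1.0e-09), and no call for the 3 genes changed. The main fit did not take the numbers as pairs, and 16 of 60 same-numbered pairs were correlated above 0.1, beside 44 of 180 pairs with other numbers.

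Values from 1 array per group on a single scan day moved by more than the residual SD of the gene in these cases. That SD is of single arrays, and differences between single arrays vary by more than it from replicate spread alone. For *WRKY53* the response was 3.95 in *atl9* on day 3, 3.85 and 3.11 in *rre2* on days 1 and 3, and *rre2* minus Col-0 after mock treatment was -0.16 on day 1. For *WRKY22* the response of *rre2* was 3.92 and 1.83 on days 1 and 3, *rre2* minus Col-0 was -0.31 after mock treatment and 0.52 after chitin on day 1 and -0.35 after chitin on day 3, and its response minus that of Col-0 was 0.84 on day 1. *WRKY22* also gave -0.58 for *atl9* minus Col-0 after mock treatment on day 2 and 0.55 for *atl9* minus *rre2* after chitin on day 3. For *WRKY6* the response of *rre2* was 1.57 and 0.90 on days 1 and 3. The cause was not tested.

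The shares of probe sets called moved with the processing. They count probe sets that cross a threshold, so their stability is not comparable with that of the 3 genes. Called in either direction were 10.9% in *atl9*, 13.1% in *rre2* and 17.5% in Col-0 for the chitin response, with alternatives between 5.46% and 16.7%, 7.47% and 21.4%, and 5.8% and 26.3%. After chitin, *atl9* against Col-0 ranged between 0.121% and 23.6% around 12.6%, and *rre2* against Col-0 between 0.00605% and 15.5% around 9.23%. The lowest values came from scan day 4 alone, with 12 arrays. Leaving out Col-0 chitin replicate 4 gave 6.99% for *atl9* against Col-0, and leaving out *rre2* chitin replicate 3 gave 4.33% for *rre2* against Col-0. Differences of response ranged up to 4.89% for *atl9* and 1.91% for *rre2* with array weights, and down to 0 on day 4. With 1 array left out they ranged between 0 (without *atl9* chitin replicate 3) and 0.799% (without Col-0 chitin replicate 1) for *atl9*, and between 0 (without Col-0 mock replicate 3) and 1.52% (without *rre2* chitin replicate 1) for *rre2*. The share that differed between the mutants after chitin, 0.00605%, was 1.91% without *atl9* chitin replicate 2. Rises made up 71.5% of the calls in *atl9*, 66.0% in *rre2* and 67.5% in Col-0, but 36.9%, 32.9% and 30.4% on the values as deposited and 47.5%, 46.0% and 44.5% after quantile normalization.

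Ratios within an array kept their sign with each array left out, where 3 against 4 arrays cannot give a p under 0.0571. Of the 5 genes most like *WRKY53*, *WRKY22* and *WRKY6*, Spearman's rho over the 24 arrays kept 0, 1 and 2 among its first 5, and Pearson's r over the 6 group means kept 2, 1 and 0. Motifs in promoters were not run.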
